A study of Mus musculus with 55 samples.

Results

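The uninjured fellow eye of a mouse with an optic nerve injury is often taken as a stand-in for an untouched eye, and the comparison here asks how far the optic nerve head (ONH) of that fellow eye differed from the ONH of naïve mice 1 week after the crush. The 5 contralateral control samples collected at 1 week were set against the 5 naïve controls, 10 of the 55 arrays of the series. All samples came from female C57Bl/6 mice that were 6 to 8 weeks old at surgery, and no transgene or other allele is named for them. In the contralateral group the left optic nerve had been crushed with forceps over 10 seconds, 1 mm from the globe, and the sample is the right eye, which was not operated on. The operated mice had received ketamine and xylazine, a topical anaesthetic and an antibiotic ointment, while the naïve mice had no surgery, so that the crush of the other eye and the handling that went with it cannot be told apart here. Each replicate was a pool of 2 ONHs, from the right eyes of 2 mice in the contralateral group. The labels do not give the side of the naïve eyes, the age of the naïve mice at collection or the time of day of collection. The numbers that the labels give the arrays run through one group after the other, so that this order and the group cannot be told apart either.

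Expression was read as the intensity of each probe set on an Affymetrix Mouse Genome 430A 2.0 array, a set of short probes for 1 transcript. A difference is given as log2 of the contralateral over the naïve intensity, with values below 20 set to 20, and ± is its standard error (SE) unless an SD is named. The test was a limma model of 25 uninjured arrays, the 5 naïve ones and 20 contralateral ones in 4 groups (5 each at 1 and 3 days and at 1 and 3 weeks), with p-values adjusted over 18669 probe sets by the Benjamini-Hochberg method. A probe set was called where it differed 2-fold or more with an adjusted p under 0.05. In a sample of whole tissue, fewer cells of a type and less RNA for each cell cannot be told apart.

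The ONH is the place where the axons of the retinal ganglion cells leave the eye, and it holds astrocytes, microglia, oligodendrocytes of the myelination transition zone, vessels and connective tissue. Most tissues carry a circadian clock, a loop of transcription factors that turns over about once a day. In that loop Bmal1 (listed here as Arntl) pairs with Clock or its relative Npas2 and activates genes through a DNA element called the E-box. Among these genes are the Period (Per) and Cryptochrome (Cry) genes, whose proteins shut the activators down, the nuclear receptors Nr1d1 and Nr1d2, which repress Bmal1 through the ROR element, and the factors Dbp, Tef and Hlf, which pass the rhythm on through the D-box. Activators and repressors therefore peak at different times of the day.

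Few probe sets passed the test between contralateral ONHs at 1 week and naïve ONHs, and of 37 gene lists that of the circadian clock had the most members that passed, 8. Of 18669 probe sets, 21 (0.112%) were called, 11 higher (0.0589%) and 10 lower (0.0536%) in contralateral ONHs, and 19 of them name a single gene. Without the 2-fold threshold 102 probe sets (0.546%) passed, 56 higher (0.3%) and 46 lower (0.246%), and they name 79 genes. After quantile normalization the corresponding split was 35 higher and 66 lower, and after a shift of all arrays to a common median 30 higher and 53 lower. Before adjustment, 9.83% of all probe sets were higher and 4.57% lower at p under 0.05. The 2 groups of 5 arrays did not overlap for 359 probe sets (1.92%), and among the 21 called ones they did not overlap for 16. The median difference over all probe sets was 0.05.

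How many probe sets passed depended on the model. With only the 10 arrays of both groups, and 8 in place of 20 residual degrees of freedom, 0 of 17928 probe sets were called, 1303 had an unadjusted p under 0.05 and 1 passed at any fold, Tef, with an adjusted p of 0.0332. Of the 102 probe sets above, 100 were tested in that smaller model, and all 100 had an unadjusted p under 0.05 there with the same direction. That is no independent evidence, because the 102 were picked on these same 10 arrays. The difference of a probe set is the same in both models, so its direction could not change. Single arrays weighed on the counts too. The number called was 32 without naïve replicate 5, 34 without contralateral replicate 1 and 37 without contralateral replicate 5. At any fold it was 53 and 63 without naïve replicates 2 and 3, 167 without naïve replicate 5, 177 without contralateral replicate 4 and 410 without contralateral replicate 5.

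Of the 18 genes of the clock list, 16 were measured. In contralateral ONHs 6 were higher (Per2, Dbp, Per3, Cry1, Tef and Bhlhe40) and 2 lower (Arntl and Npas2) at an adjusted p under 0.05, against 0.3% and 0.246% of all probe sets. The other 8 did not pass. When p was left unadjusted, 10 members were higher and 4 lower, against 9.83% and 4.57% of all probe sets. The groups of arrays did not overlap for 7 of the 16 genes, against 1.92% of all probe sets. The median difference of the list was 0.29, against 0.05 over all probe sets. The members were known from earlier results of these arrays, so the count describes the list and is no independent evidence. With any single array left out, between 7 and 9 of the 16 genes passed. With the 10 arrays alone the adjusted p of the 7 other passing genes lay between 0.106 and 0.441, with unadjusted p from 3.72e-05 to 0.00318.

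**Figure D1:**
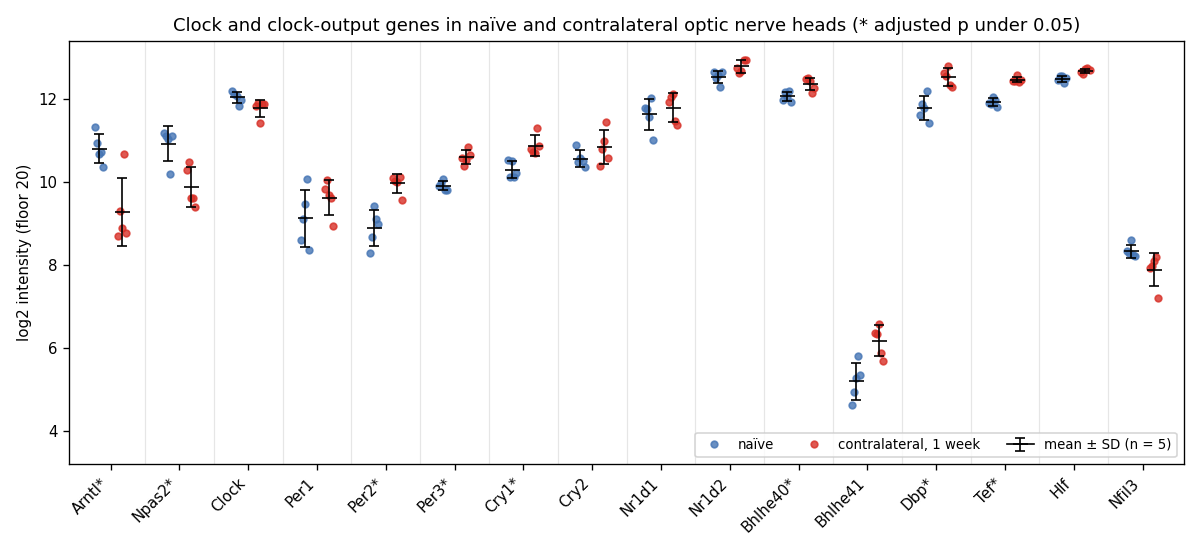
Log2 intensity (floor 20) of the 16 clock genes on each of 5 naïve (blue) and 5 contralateral arrays at 1 week (red), with the mean ± SD in black and an asterisk for an adjusted p under 0.05. Arntl and Npas2 sat lower in contralateral ONHs, although 1 contralateral array for Arntl and 2 for Npas2 reached into the naïve range, while the red points of Per2, Per3, Cry1, Dbp and Tef all lay above the blue ones.

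Arntl and Npas2, activators of the loop, were lower. Arntl had intensities of 2544, 1954, 1636, 1687 and 1311 on the naïve arrays and 416, 627, 475, 1620.0 and 435 on the contralateral ones. All contralateral arrays but replicate 4 lay below every naïve array. The difference was -1.54 ± 0.26 (2.9-fold lower, adjusted p = 0.00471), and without replicate 4 it was -1.89 (adjusted p = 2.91e-06). Npas2, a paralog of Clock that can take its place beside Bmal1, had 2313, 2197, 2087, 1166 and 2208 in naïve and 1246, 1426, 783, 779 and 674 in contralateral ONHs. Naïve replicate 4 was low for this gene and fell within the contralateral range. The difference was -1.04 ± 0.20 (adjusted p = 0.0104), close to the 2-fold threshold. It stayed past the adjusted p without any single array, but came in under 2-fold without naïve replicates 1, 2 or 5 or contralateral replicates 3, 4 or 5, at -0.93 to -0.999. A second probe set of Npas2 gave -0.23 ± 0.14 (adjusted p = 0.475). Clock itself gave -0.26 ± 0.09 (adjusted p = 0.171) on one probe set and -0.58 ± 0.15 (adjusted p = 0.0848) on the other, and neither passed.

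Of the repressors, Per2 measured 314, 407, 680.1, 546 and 502 on the naïve arrays and 1088, 1044, 1023, 1109.8 and 756 on the contralateral ones. Every contralateral array lay above every naïve one, with replicate 5 the lowest of its group. The difference was 1.07 ± 0.18 (2.1-fold higher, adjusted p = 0.00456), and 0.92 without naïve replicate 1, which is under 2-fold. A second probe set of Per2 gave 0.93 ± 0.30 (adjusted p = 0.158). Per3 measured 948, 1011, 1070.4, 888 and 896 in naïve and 1529, 1326, 1466, 1819 and 1612 in contralateral ONHs, without overlap. Its difference was 0.68 ± 0.11 (adjusted p = 0.00391). Cry1 measured 1478, 1101, 1436, 1102 and 1177 in naïve and 1763, 1691, 1646, 2512 and 1870.3 in contralateral ONHs. These groups did not overlap either, and contralateral replicate 4 was the highest. The difference was 0.59 ± 0.10 (adjusted p = 0.00723). Per1 and Cry2 did not pass, at 0.50 ± 0.26 and 0.28 ± 0.13 (adjusted p = 0.384 and 0.331). Naïve arrays spread from 329 to 1070.2 for Per1, a range that held all of its contralateral values.

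In the second loop, the nuclear receptors Nr1d1 and Nr1d2 gave 0.16 ± 0.17 and 0.26 ± 0.07 (adjusted p = 0.696 and 0.108), and neither passed. Bhlhe40 (also named Dec1), which competes with the activators, had 4034, 4577, 4223, 4624 and 3869.9 in naïve and 5699.7, 5766, 5467, 4529 and 4929 in contralateral ONHs. Contralateral replicate 4 lay within the naïve range. The difference of 0.30 ± 0.06 passed (adjusted p = 0.024), but not after quantile normalization (0.26, adjusted p = 0.0844) and not without naïve replicates 1 or 3 or contralateral replicates 1, 2 or 3 (adjusted p = 0.0595 to 0.0732). Its relative Bhlhe41 was at 38.1 ± 12 (SD, n = 5) in naïve ONHs and at 73.7 ± 18.2 in contralateral ones. That difference of 0.97 ± 0.25 did not pass (adjusted p = 0.0778).

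Of the output factors, Tef had the smallest adjusted p. It measured 3805, 3772, 4222, 3999 and 3542 on the naïve arrays and 5496, 5509.6, 6088, 5448 and 5622 on the contralateral ones. The lowest contralateral array was well above the highest naïve one. The difference was 0.54 ± 0.06 (1.46-fold higher, adjusted p = 4.46e-05), and this probe set passed under all 23 alternatives that were run. A second probe set of Tef gave 0.12 ± 0.26 (adjusted p = 0.881). Dbp measured 3131, 3729, 3510.3, 4656 and 2713 in naïve and 6345, 5952, 7121, 5193 and 4983 in contralateral ONHs on one of its probe sets. The groups did not overlap. Its 2 probe sets gave 0.75 ± 0.13 and 0.90 ± 0.15 (adjusted p = 0.00602 and 0.00487). Hlf, the third factor of this family, gave 0.19 ± 0.07 without overlap of the groups but did not pass (adjusted p = 0.186). Nfil3, which represses through the same D-box, gave -0.45 ± 0.18 (adjusted p = 0.235). Usp2, a deubiquitinating enzyme under clock control that is outside the list and was chosen after its values were seen, had 2 probe sets at 0.64 ± 0.12 and 0.43 ± 0.09 (adjusted p = 0.0104 and 0.0201).

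The promoters of 4 of these genes are shown because they hold letters that match the elements of the loop. They are RefSeq sequences of build GRCm38.p6, 250 bases before to 50 after the start, printed along the gene's strand, which is the minus strand for Per3 and Cry1 and the plus strand for Tef and Arntl. Capitals mark the E-box CACGTG, the D-box TTATGTAA or TTACGTAA and the ROR element AGGTCA, each searched on both strands, and no marked element overlaps another.
Per3, chr4:151044616-151044915: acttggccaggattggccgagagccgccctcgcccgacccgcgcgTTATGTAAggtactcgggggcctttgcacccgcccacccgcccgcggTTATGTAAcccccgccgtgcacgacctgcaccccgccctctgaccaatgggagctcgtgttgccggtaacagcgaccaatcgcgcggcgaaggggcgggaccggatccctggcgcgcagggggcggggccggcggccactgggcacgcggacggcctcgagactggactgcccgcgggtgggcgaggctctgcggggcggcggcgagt
Tef, chr15:81802423-81802722: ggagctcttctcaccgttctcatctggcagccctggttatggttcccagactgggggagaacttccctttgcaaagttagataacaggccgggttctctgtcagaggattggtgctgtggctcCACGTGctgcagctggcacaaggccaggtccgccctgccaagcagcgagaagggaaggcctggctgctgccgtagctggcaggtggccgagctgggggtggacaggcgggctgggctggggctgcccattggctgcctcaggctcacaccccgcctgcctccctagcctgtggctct
Cry1, chr10:85185005-85185304: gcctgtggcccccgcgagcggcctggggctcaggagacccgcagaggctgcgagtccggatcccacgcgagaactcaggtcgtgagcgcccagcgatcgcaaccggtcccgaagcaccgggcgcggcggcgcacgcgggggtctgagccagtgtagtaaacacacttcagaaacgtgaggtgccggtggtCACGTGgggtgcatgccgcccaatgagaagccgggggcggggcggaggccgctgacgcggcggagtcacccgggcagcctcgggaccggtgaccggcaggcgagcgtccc
Arntl, chr7:113207261-113207560: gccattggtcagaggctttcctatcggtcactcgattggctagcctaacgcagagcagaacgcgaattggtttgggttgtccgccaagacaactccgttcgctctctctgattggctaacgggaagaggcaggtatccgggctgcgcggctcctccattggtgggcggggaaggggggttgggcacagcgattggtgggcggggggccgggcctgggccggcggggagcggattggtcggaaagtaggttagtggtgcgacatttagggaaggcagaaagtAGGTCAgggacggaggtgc
The Per3 window holds 2 D-boxes, at 205 and 158 bases before the start. The Tef window holds an E-box 127 bases before the start, and a second start of Tef has another one, 138 bases before. The E-box of Cry1 lies 60 bases before its start. The ROR element of this start of Arntl lies within the first 50 bases after it. The window of another start of Arntl (chr7:113207215-113207514) holds none of the marked elements.

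Promoters were found for 14 of the 16 measured clock genes. An E-box was in the window of 4 of 14 (Bhlhe41, Cry1, Per1 and Tef), a D-box in that of 1 (Per3, against 0.703% of the genes tested for TTATGTAA) and a ROR element in that of 5 of 14 (Arntl, Clock, Nfil3, Nr1d2 and Per1). Of the called genes with a promoter, 0 of 13 had an E-box or a D-box, and 2 of 13 (15.4%) had a ROR element. Among the genes that passed at any fold, 12 of 63 with a promoter had an E-box (19%), against 11.4% of 8398 genes tested and 8.09% of all genes in the table. These 12 include Cry1 and Tef of the clock list. A ROR element was in 6 of 63 (9.52%), against 15.2% of the genes tested. The cAMP element TGACGTCA was in 2 of 63 (3.17%, against 3.27%), the motif TGTTCT of the glucocorticoid receptor in 5 of 63 (7.94%, against 15.7%) and the CArG box in 1 of 63 (1.59%, against 1.76%). These shares are a description of letters in a short window.

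The clock genes were also followed at the other contralateral times, each compared with the same 5 naïve arrays. Arntl was at -1.16 at 1 day, -0.39 at 3 days and -0.60 at 3 weeks (adjusted p = 0.197, 0.934 and 0.13), beside -1.54 at 1 week. For Per2 the values were 0.73, 0.58 and 0.11, for Dbp 0.61, 0.07 and 0.20, and for Tef 0.37, 0.10 and 0.06. The values at 1 day of Tef and Bhlhe40 passed (adjusted p = 0.0155 and 0.00305), and at 3 days and 3 weeks none of the 8 genes did. A direct test set 1 week against the mean of 1 day, 3 days and 3 weeks. Its difference leaves the naïve arrays out, but they entered its filter and its estimate of the spread. The test is no independent evidence, because it keeps the 1 week arrays on which these genes were found. In this test Per3 was higher by 0.59 ± 0.09 (adjusted p = 0.00177), Tef by 0.36 ± 0.05 (adjusted p = 0.000318) and the second probe set of Dbp by 0.57 ± 0.12 (adjusted p = 0.049). Arntl, Npas2, Per2 and Cry1 gave -0.82 ± 0.21, -0.71 ± 0.16, 0.60 ± 0.15 and 0.37 ± 0.09 and did not pass (adjusted p = 0.109, 0.0635, 0.0837 and 0.0635).

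**Figure D2:**
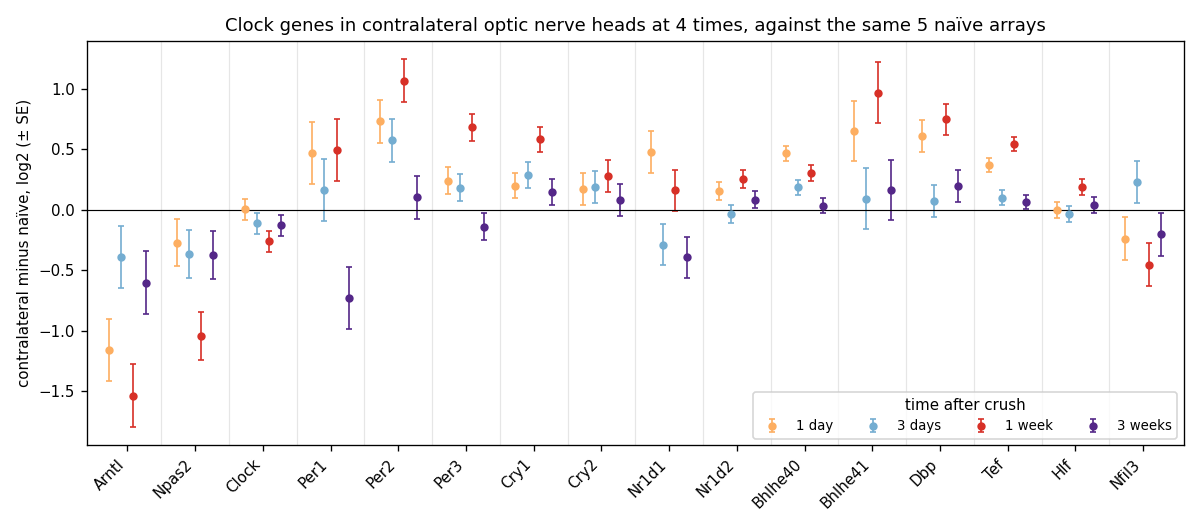
Difference from naïve on the log2 scale (± SE, limma model of 25 arrays) for the 16 clock genes in the 4 contralateral groups, from 1 day to 3 weeks. All 4 times share the 5 naïve arrays, so a naïve array that stands apart moves the 4 points of a gene together. The points for 1 week lay farthest from 0 for Arntl, Npas2, Per2, Per3, Cry1, Dbp and Tef.

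The crushed eyes at 1 week were set against the contralateral ones in pairs of the same replicate number. Arntl was at 724 ± 214 there, beside 715 ± 513 in contralateral ONHs (SD, n = 5), and crushed minus contralateral was 0.19 ± 0.22 (adjusted p = 0.508, paired limma model). Per3 likewise was at 1734 ± 312, beside 1550.3 ± 183, with 0.15 ± 0.14 (adjusted p = 0.426). Npas2 was lower in the crushed eyes, at 331 ± 50, with a paired difference of -1.52 ± 0.22 (adjusted p = 1.45e-05). Per2, Cry1, Tef and Dbp were lower in crushed than in contralateral ONHs, with paired differences of -0.69 ± 0.12, -0.47 ± 0.10, -0.28 ± 0.08 and -0.43 ± 0.12 (adjusted p = 0.000111, 0.00097, 0.00946 and 0.00752). The contralateral arrays are those on which these genes were found higher than in naïve ONHs, which by itself pushes such paired differences down. An effect of the crush on these genes was not tested apart from that selection.

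Transcripts of photoreceptors, cells of the neighbouring retina, varied widely within both groups. The mean log2 level of 16 photoreceptor markers ranged from 5.85 to 11.79 in naïve and 5.50 to 12.06 in contralateral arrays, with an exact permutation p of 0.865 between the groups (two-sided, 5 against 5). On naïve replicate 1 and contralateral replicate 4, the richest arrays, none of the 16 markers was at or below 20. On naïve replicate 3 and contralateral replicate 1, the poorest by mean level, 3 and 4 were. Naïve replicate 5, with a mean level of 5.87, had 4. The 2 richest arrays had the highest Arntl of their groups. With this level as a covariate, 9 of 16 clock genes passed, Arntl gave -1.58 (adjusted p = 0.000156) and Per2 1.09 (adjusted p = 0.00141). Without these 2 arrays, a choice made after seeing the data, 7 clock genes passed. Arntl was then at -1.76 (adjusted p = 7.65e-06), Per2 at 0.88 (adjusted p = 0.0275) and Npas2 at -0.91 (adjusted p = 0.0729). What the time of day of collection, which the labels do not give, adds to these differences was not tested.

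Outside the clock, Slc39a14, Tnfrsf12a, Hbegf, Rasa2, Glipr2 and Ilkap were lower in contralateral ONHs at 1 week than in naïve ones. The zinc transporter Slc39a14 (ZIP14) measured 2197, 2613, 2930.0, 1948 and 2259 on the naïve and 1029, 1533, 859.7, 774 and 978 on the contralateral arrays, without overlap. It was lower by 1.23 ± 0.14 (2.35-fold, adjusted p = 9e-05), and its second probe set gave -0.95 ± 0.17 (adjusted p = 0.00719). Tnfrsf12a, the receptor of the cytokine TWEAK, measured 822, 1044, 1452, 904 and 1154 in naïve and 558, 707, 476, 447 and 569 in contralateral ONHs. The groups did not overlap, and the 2 probe sets of the gene gave -0.95 ± 0.17 and -0.95 ± 0.18 (adjusted p = 0.00912 and 0.01). Hbegf, a ligand of the EGF receptor, measured 1148, 1259, 1401, 1071 and 1107 in naïve and 559, 858, 694, 445 and 629 in contralateral ONHs. It too had no overlap, with -0.94 ± 0.14 and -0.59 ± 0.13 on its 2 probe sets (adjusted p = 0.00177 and 0.0313). Rasa2, which switches off Ras, gave -0.83 ± 0.12 (adjusted p = 0.00101), and the Golgi-associated Glipr2 gave -0.79 ± 0.14 and -0.46 ± 0.10 (adjusted p = 0.00912 and 0.0378). Ilkap, a phosphatase associated with integrin-linked kinase, measured 365, 475, 556, 506 and 360.1 in naïve and 156, 243, 147, 116 and 147 in contralateral ONHs, a difference of -1.51 ± 0.24 (adjusted p = 0.00287). It kept its call without each array in turn.

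These genes also differed at 1 week from the mean of the other contralateral times. The test against 1 day, 3 days and 3 weeks passed for 44 probe sets (0.236%) at any fold, 15 higher and 29 lower, and for 6 at 2-fold. The split was 11 and 43 after quantile normalization and 10 and 46 after a shift to a common median. This count too moved with single arrays of the 1 week group. Leaving out replicate 1 gave 23, leaving out replicate 2 gave 79, and the loss of replicates 3 and 5 gave 16 and 528. At 2-fold, the loss of replicates 2, 3 and 5 gave 11, 3 and 16. Slc39a14 was lower by 1.05 ± 0.12 (adjusted p = 8.92e-05), Tnfrsf12a by 1.16 ± 0.14 (adjusted p = 0.000191), Hbegf by 0.89 ± 0.11 (adjusted p = 0.000229), Rasa2 by 0.63 ± 0.10 (adjusted p = 0.00177) and Glipr2 by 0.79 ± 0.12 (adjusted p = 0.00164). For Slc39a14, Hbegf, Glipr2, Rasa2 and Ilkap the test of crushed against contralateral ONHs at 1 week did not pass. Slc39a14 had 1039 ± 187 in crushed and 1035 ± 296 in contralateral ONHs (SD, n = 5), a paired difference of 0.03 ± 0.17 (adjusted p = 0.9). For Hbegf the paired difference was -0.15 ± 0.18 (adjusted p = 0.513) and for Glipr2 0.05 ± 0.17 (adjusted p = 0.847). Rasa2 and Ilkap gave -0.14 ± 0.09 and -0.006 ± 0.20 (adjusted p = 0.26 and 0.985), while Tnfrsf12a was higher in crushed than in contralateral ONHs by 0.60 ± 0.20 (adjusted p = 0.0182). Tnfrsf12a was at 830 ± 97.1 in crushed, 551 ± 101 in contralateral and 1075 ± 246 in naïve ONHs (SD, n = 5). The contralateral arrays are those on which these genes were found lower, which by itself pushes such paired differences up. An effect of the crush on these genes was not tested apart from that selection. Of the 21 called probe sets, 4 passed the test against the other contralateral times (Slc39a14, Ilkap, Rasd2 and Pcsk4), and of the 102 at any fold 28 did. Against the same naïve arrays, 6 of the 21 were also called at 3 weeks, 0 at 1 day and 0 at 3 days. The comparisons with naïve and with the other times use the same 5 contralateral arrays. No single one of the other times was tested against 1 week. Some genes were also off naïve at 1 or more of them, though none of the following passed. At 1 day, 3 days and 3 weeks against naïve, Rasa2 gave -0.40, -0.27 and 0.06. Ilkap gave 0.45, -0.49 and -0.67, so the mean of the other times joins values of opposite sign. Rasd2 gave 1.19, -0.12 and -0.05, and Pcsk4 0.66, 0.16 and 0.13.

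**Figure D3:**
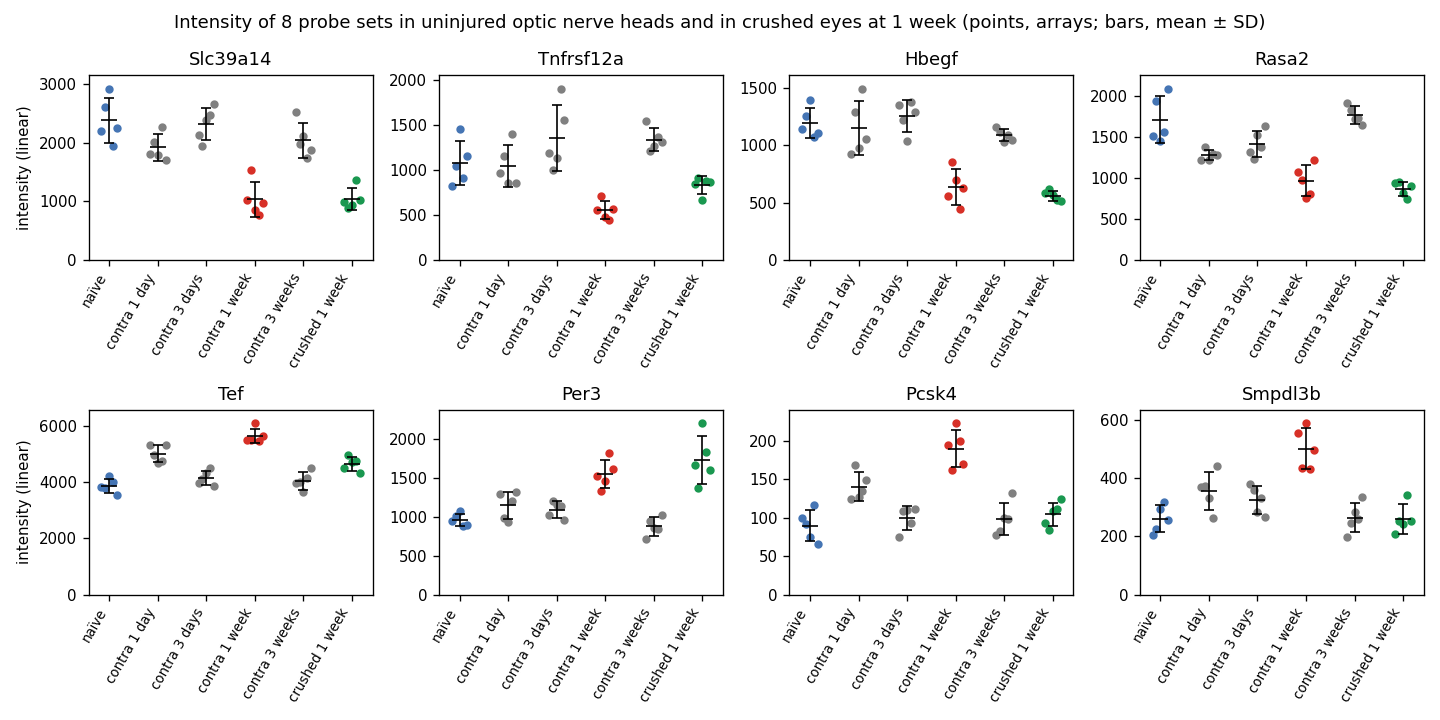
Linear intensity of 8 probe sets that passed both against naïve and against the mean of the other contralateral times, for 5 arrays a group with mean ± SD, with the crushed eyes at 1 week in green. Slc39a14, Tnfrsf12a, Hbegf and Rasa2 (top row) were low in contralateral ONHs at 1 week (red), and Tef, Per3, Pcsk4 and Smpdl3b (bottom row) were high, each against both the naïve arrays (blue) and the other contralateral times (grey).

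Ccn1 and Spon2 were also lower, but lost their call without some of the arrays. Ccn1 (CYR61), a secreted matrix-associated protein, measured 1804, 3313, 2301, 1691 and 1432 in naïve and 950.4, 990.0, 1157, 719.6 and 603 in contralateral ONHs without overlap. The probe set gave -1.23 ± 0.26 (adjusted p = 0.024), and another one of the same gene gave -0.91 ± 0.22 without passing (adjusted p = 0.0523). The call was lost without naïve replicates 2 or 3 (adjusted p = 0.0703 to 0.0851), and Ccn1 was at -1.53 at 3 weeks (adjusted p = 0.00361). Spon2 (spondin 2, of the extracellular matrix) measured 211, 399.8, 376, 155 and 163 in naïve and 54.1, 56.1, 113, 92.9 and 74.3 in contralateral ONHs. It gave -1.68 ± 0.34 (adjusted p = 0.019), which did not hold without naïve replicates 2 or 3 (adjusted p = 0.0638 to 0.0645).

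Below 2-fold, the decreases included Gfra2, the coreceptor of neurturin, at -0.92 ± 0.19 (adjusted p = 0.0201), the cyclic GMP phosphodiesterase Pde9a at -0.88 ± 0.17 (adjusted p = 0.0121), cytidine deaminase (Cda) at -0.87 ± 0.18 (adjusted p = 0.0223) and Chmp4c, a member of the ESCRT machinery, at -0.88 ± 0.20 (adjusted p = 0.0342). Ntrk3, the receptor of neurotrophin 3, gave -0.54 ± 0.12 (adjusted p = 0.0449) and Pfkfb3, a regulator of glycolysis, -0.46 ± 0.10 (adjusted p = 0.0265). Pde9a kept its call without each array in turn. Other probe sets of Gfra2 gave -0.30 ± 0.12 and -0.19 ± 0.11 and did not pass (adjusted p = 0.256 and 0.444), while the probe set that passed was also lower at 3 weeks, at -0.86 (adjusted p = 0.00946). It lost its call at 1 week without naïve replicate 4 or contralateral replicate 2 (adjusted p up to 0.0555) and Cda lost its call without naïve replicates 2, 3 or 4 (up to 0.0661). Chmp4c lost it without any naïve array but replicate 3 and without contralateral replicates 3 or 4 (up to 0.107). Ntrk3 lost it without any naïve array but replicate 5 and without contralateral replicates 3 or 4 (up to 0.149), and Pfkfb3 without naïve replicates 2, 3 or 4 or contralateral replicates 1 or 3 (up to 0.0905). A second probe set of Pfkfb3 pointed the other way, at 0.12 ± 0.15 (adjusted p = 0.743).

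Among the genes that were higher was the methyltransferase Inmt. It measured 797, 529, 1633, 1121 and 1291 in naïve and 3194, 2735, 3416, 2658 and 2937 in contralateral ONHs, without overlap. The difference was 1.57 ± 0.32 (2.98-fold, adjusted p = 0.0182), and without naïve replicates 1 or 2 it did not pass (adjusted p = 0.0521 to 0.0616). Pipox, a peroxisomal oxidase, measured 143, 144, 134, 226 and 185 in naïve and 515, 304, 446, 268 and 427 in contralateral ONHs. These values did not overlap, and the difference was 1.22 ± 0.21 (adjusted p = 0.00508). Lingo1, a neuronal membrane protein of the Nogo receptor complex, measured 259, 221, 175, 442 and 165 in naïve and 693, 555, 802, 373 and 406 in contralateral ONHs. Naïve replicate 4 lay within the contralateral range, and the difference was 1.20 ± 0.22 (adjusted p = 0.00912). The proprotein convertase Pcsk4 measured 100.2, 91.4, 74.9, 116 and 66.4 in naïve and 195, 163, 223, 199.9 and 169.8 in contralateral ONHs. It gave 1.10 ± 0.17 (adjusted p = 0.00216), 0.998 without naïve replicate 5, which is under 2-fold, and 0.78 ± 0.14 against the other contralateral times (adjusted p = 0.00882).

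Rasd2 (Rhes), a small GTP-binding protein, measured 72.6, 37.2, 50.2, 64.8 and 16.8 in naïve and 137, 157, 157, 199.7 and 121 in contralateral ONHs, 1.77 ± 0.34 with an adjusted p of 0.0115. A second probe set of Rasd2 gave 0.80 ± 0.18 (adjusted p = 0.0381). It lost its call without naïve replicates 2, 3 or 5 or contralateral replicates 1, 3 or 4 (adjusted p up to 0.102). Smpdl3b, a sphingomyelin phosphodiesterase-like protein, gave 0.95 ± 0.16 (adjusted p = 0.00391) and 0.69 ± 0.13 against the other contralateral times (adjusted p = 0.0147).

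Plin4 (perilipin 4), a coat protein of lipid droplets, had the highest adjusted p of the called genes. It measured 48.6, 78.2, 61.6, 101 and 34.6 in naïve and 229, 196, 487, 136 and 60 in contralateral ONHs. Contralateral replicate 5 lay among the naïve values, and the SD of the contralateral group was 162. The difference was 1.55 ± 0.36 (adjusted p = 0.0474). The call was lost without any naïve array but replicate 4 and without contralateral replicates 1, 2 or 3 (adjusted p up to 0.146). Dgat2, an enzyme of triglyceride synthesis, gave 0.53 ± 0.11 and 0.82 ± 0.18 on its 2 probe sets (adjusted p = 0.0246 and 0.0343), and the latter did not pass without any naïve array but replicate 5 or without contralateral replicates 2 or 3 (adjusted p up to 0.107). Gpt2, a mitochondrial alanine transaminase, gave 0.31 ± 0.07 (adjusted p = 0.0478), and a second probe set 0.06 ± 0.11 (adjusted p = 0.848). The first passed only with all arrays or without naïve replicate 5 or contralateral replicates 4 or 5.

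Rhebl1, Gp1bb, Coro2a and B3gnt5 were higher by 0.95 ± 0.20, 0.87 ± 0.20, 0.81 ± 0.18 and 0.78 ± 0.17 (adjusted p = 0.024, 0.0478, 0.0327 and 0.024). Rhebl1 did not pass without naïve replicates 2 or 4 or contralateral replicate 3, and B3gnt5 not without naïve replicates 1 or 3 or contralateral replicate 2 (adjusted p up to 0.0791 and 0.0855). Gp1bb did not without any naïve array but replicate 4 or without contralateral replicates 2, 3 or 4, and Coro2a not without any naïve array but replicate 1 or without contralateral replicates 1, 2 or 4 (up to 0.12 and 0.101). A probe set of Sphk2 (sphingosine kinase 2) gave 0.79 ± 0.12 (adjusted p = 0.00177) and another one of the same gene -0.52 ± 0.16 (adjusted p = 0.133). In the RefSeq annotation the genes Sphk2 and Dbp overlap, so the source of the first signal is uncertain.

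**Figure D4:**
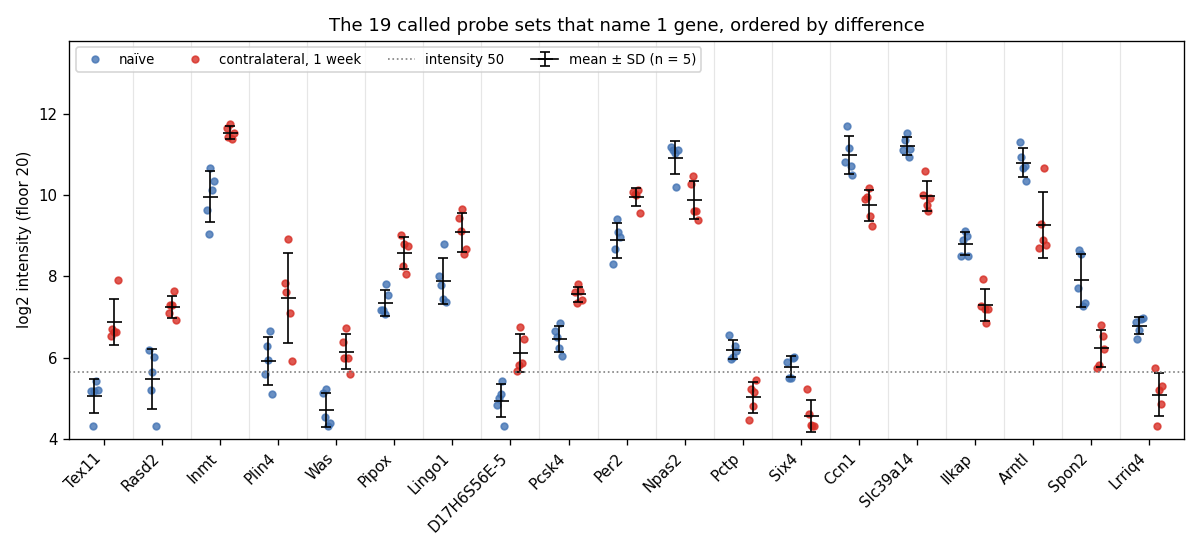
Log2 intensity (floor 20) of the 19 called probe sets that name 1 gene, for 5 naïve arrays (blue) and 5 contralateral arrays at 1 week (red), ordered from the most increased to the most decreased, with mean ± SD. The dotted line is an intensity of 50, below which the mean of 1 group lay for D17H6S56E-5, Was, Tex11, Pctp, Rasd2, Six4 and Lrriq4.

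Several called probe sets were dim. In 8 of the 21, the mean of one of the groups was below an intensity of 50, the level used in the filter. Tex11, a testis gene of meiosis, measured 36.4, 16.4, 36, 42.7 and 37.1 in naïve and 92.3, 105, 98.6, 98.7 and 239 in contralateral ONHs (1.82 ± 0.27, adjusted p = 0.00177). Was, an actin regulator of blood cells, measured 34.8, 23.3, 37.2, 20 and 21.1 in naïve and 83.7, 64.1, 106, 63.4 and 48.8 in contralateral ONHs (1.42 ± 0.26, adjusted p = 0.00912). Neither gene overlapped between the groups, but both were also higher at 3 weeks, by 1.28 and 1.29 (adjusted p = 0.00719 and 0.00633). D17H6S56E-5 gave 1.17 ± 0.22 (adjusted p = 0.0104) and another probe set of it 0.63 ± 0.22 (adjusted p = 0.182). Of the lower ones, Lrriq4 gave -1.70 ± 0.31 at 1 week and -1.54 at 3 weeks (adjusted p = 0.00912 and 0.00592). Six4, a homeobox gene, gave -1.21 ± 0.24 at 1 week and -1.04 at 3 weeks (adjusted p = 0.0133 and 0.0106), and Pctp (phosphatidylcholine transfer protein) gave -1.18 ± 0.21 (adjusted p = 0.00719). Other probe sets of Six4 and Pctp gave -0.02 ± 0.17 and -0.07 ± 0.10 (adjusted p = 0.974 and 0.795).

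The cells of the ONH were described with 18 lists of cell type markers. Of their 177 members tested 2 passed, against 0.546% of all probe sets. These were Inmt among fibroblast and Plin4 among adipocyte markers. Of 10 adipocyte markers 4 were tested, Plin4 among them, and these 4 had a median difference of 0.80, the highest of the 37 lists. Their mean log2 level ranged from 7.49 to 8.94 in naïve and 7.91 to 10.57 in contralateral arrays, and its part in the higher Plin4 and Dgat2 was not tested. No astrocyte, microglia, oligodendrocyte, axon or vessel marker passed on the probe set of highest mean intensity, which stood for each gene in the lists. The label of the tissue was checked against its glial markers. The mean log2 level of 15 astrocyte markers ranged from 11.83 to 12.02 in naïve and 11.90 to 12.13 in contralateral arrays, and that of 11 oligodendrocyte markers from 12.17 to 12.47 in naïve and 12.29 to 12.75 in contralateral arrays. Gfap and Aqp4, the filament and the water channel of astrocytes, gave 0.10 ± 0.07 and 0.12 ± 0.05 (adjusted p = 0.524 and 0.301). The connexin Gja1 gave -0.05 ± 0.06 on one probe set (adjusted p = 0.739) and -0.64 ± 0.15 on another (adjusted p = 0.0471). Of the 23 reactive astrocyte genes tested, none passed, while by unadjusted p 1 was higher and 5 were lower, against 9.83% and 4.57% of all probe sets. Mbp and Mog of myelin gave 0.08 ± 0.07 and 0.25 ± 0.08 (adjusted p = 0.625 and 0.141), and 6 of 11 oligodendrocyte markers were higher at an unadjusted p under 0.05, against 9.83% of all probe sets. The heavy neurofilament Nefh gave -0.57 ± 0.31 and Sptbn4, a spectrin of the axon initial segment, -0.24 ± 0.32 (adjusted p = 0.413 and 0.779).

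None of the members of the microglia, chemokine and interferon lists passed. Of 18 microglia and macrophage markers, 0 passed in limma, while by unadjusted p 7 were higher and 0 lower, against 9.83% and 4.57% of all probe sets, with a median difference of 0.23. Aif1 (IBA1), Cd68, Itgam and Tnf gave 0.31 ± 0.20, 0.04 ± 0.14, -0.34 ± 0.19 and -0.16 ± 0.26 (adjusted p = 0.487, 0.92, 0.438 and 0.821). The 15 chemokines and acute cytokines had a median of 0.50, with 1 higher and 1 lower by unadjusted p. For 17 interferon-stimulated genes the median was 0.20, with 1 higher and 0 lower. Of 22 immediate early and stress genes, by unadjusted p 1 was higher and 5 were lower, again against 9.83% and 4.57% of all probe sets. The 16 glucocorticoid-responsive genes had 1 that passed, Plin4, against 0.546% of all probe sets, and 4 higher by unadjusted p, against the same 9.83%.

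**Figure D5:**
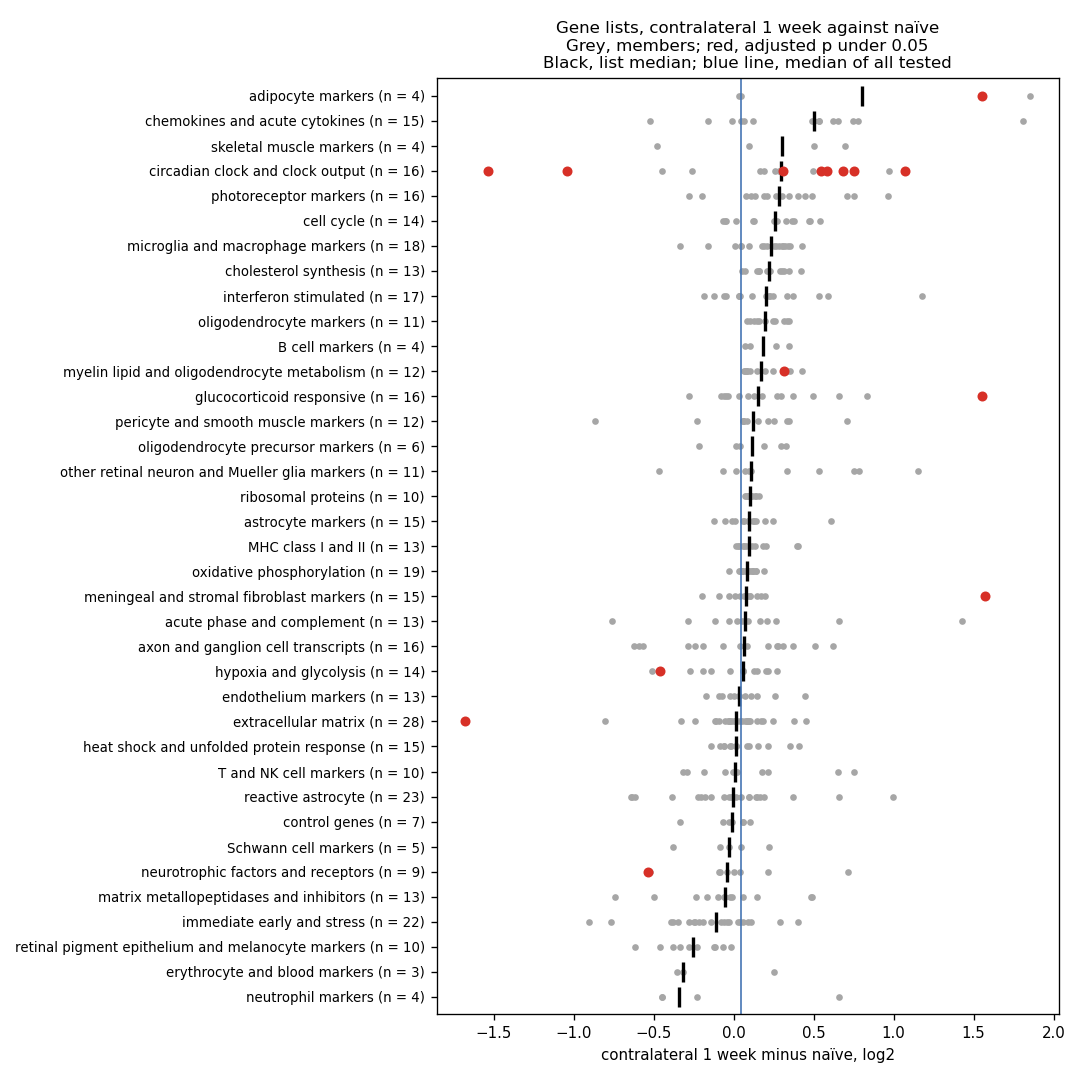
Difference on the log2 scale between contralateral ONHs at 1 week and naïve ONHs for the tested members of 37 gene lists, 1 probe set for each gene (that of the highest mean intensity), with the list median as a black bar. Red points passed at an adjusted p under 0.05, and 8 of them belong to the clock list. The blue line is the median of all 18669 probe sets, 0.05.

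In all, 29 of the 37 lists had no member that passed. The 13 genes of cholesterol synthesis had 7 that were higher at an unadjusted p under 0.05 and a median of 0.22, and the 10 ribosomal protein genes had 6 and a median of 0.10, against 9.83% and 0.05 over all probe sets. Of 28 extracellular matrix genes 1 passed (Spon2), of 14 hypoxia and glycolysis genes 1 (Pfkfb3), of 9 neurotrophic factors and receptors 1 (Ntrk3) and of 12 genes of myelin lipid metabolism 1 (Gpt2). Over all probe sets 0.546% passed. Of the 7 control genes none passed, and Actb gave -0.03 ± 0.05 (adjusted p = 0.856).

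The 3 criteria of the study apply no correction for multiple tests, and the paper calculated a false discovery rate beside them. Here 4 of 22626 probe sets (0.0177%) met the criteria. They were Inmt and Rasd2, which were higher, and Spon2 and Ilkap, which were lower. The criteria require a difference of means over 100, a lower confidence bound of the fold over 2 and a p under 0.05 in the methods' t-test. For the 8 clock genes that passed in limma, that bound lay between 1.12 and 1.64. The count was 2 without naïve replicate 2 and 7 without contralateral replicate 4. With the methods' t-test adjusted by Benjamini-Hochberg it was 0, and by that test alone 1963 probe sets had an unadjusted p under 0.05 and 1 an adjusted one.

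Array-wide measures were compared by exact permutation tests, and none passed. Median intensity was 486 ± 19.4 (SD, n = 5) in naïve and 501 ± 18.4 in contralateral arrays (exact permutation p = 0.278), and 17812 ± 82.7 and 17906 ± 233 probe sets reached 50 (exact permutation p = 0.444). The share of values at the floor was 10.4% ± 0.421 and 10.7% ± 0.631 (exact permutation p = 0.413). These tests were two-sided, 4 were run with adjusted p of 0.593 to 0.865, and the smallest p they allow is 0.00794. The median correlation between arrays across probe sets was 0.984 within the naïve group, 0.979 within the contralateral group and 0.981 between them.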

How the data were processed

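Total RNA of ONH pools was amplified and hybridised to Affymetrix Mouse Genome 430A 2.0 arrays. The deposited values are linear intensities, 1 for each probe set and array, to which the authors applied DChip's invariant-set normalization and its PM/MM difference model, separately for the first 45 arrays and the last 10, which were not used here. The DChip version is not given in the sources used here. Such values share 1 scale within the first batch only, and low ones are uncertain because a mismatch signal was subtracted. Depth has no counterpart on arrays, and the number of arrays limits the precision. Nothing in the labels ties a replicate to more than its pool, so p-values measure the spread between pools.

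Intensities below 20 were set to 20 and taken to log2. Of the 22690 deposited probe sets, 64 controls were left out, and 18669 of the other 22626 had at least 5 of 25 arrays at 50 or above. The model (limma 3.58.1, R 4.3.3, eBayes with an intensity trend) held the naïve group and 4 contralateral groups, unpaired, with the contrasts given in the report. Adjusted p-values in the text are from limma with Benjamini-Hochberg adjustment. Crushed against contralateral values came from a paired limma model of 40 arrays. The scripts were tested on simulated data. Figures were drawn with matplotlib 3.10.9. The platform annotation gave 1 gene for 20380 probe sets, several for 691 and none for 1555. Alternatives were the arrays in the model, the floor, the filter, the scaling, the variance model, array weights, a replicate block, a photoreceptor covariate, other probe sets and the loss of each array.

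The named genes were all called probe sets with 1 gene, those that met the criteria of the study, the 10 largest differences in each direction at an adjusted p under 0.05 and less than 2-fold, list members that passed, the 2 brightest members of lists with none, and the brightest probe set of genes singled out by the study or earlier results (Gfap, Aqp4, Gjb6, Aif1, Itgam, Cd68, Tnf, Mbp, Mog, Sag, Sptbn4, Nefh and Gapdh, and another gene that is not reported here). The comparison and the lists were chosen with earlier results of these data known.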

Additional observations from a re-analysis of the deposited data

Results flagged for a closer look

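In 224 groups of 5 arrays (112 probe sets), 21 had 1 array far from the other 4, with a gap of more than 0.71 of the range of the group. Chance gives about 1 in 20 groups. Naïve replicate 4 was the array in 7 of them. Its intensity was 1166 for Npas2 (others 2087 to 2313), 55.5 for Rhebl1, 2899.8 for Gpt2, 10923 for Glul, 10823 for Mbp, 7325 for Klf6 and 7643 for Uqcrb, and it was the lowest of its group each time. Naïve replicate 2 was low for Tex11 (16.4) and naïve replicate 5 for Dkk3 (7044).

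Contralateral replicate 4, the array richest in photoreceptor transcripts, was high for the neuronal gene Snap25 (10851, others 2841 to 3688), the retinoid-binding gene Rlbp1 (4792) and the chaperone Hsp90aa1 (10556). Replicate 5 was low for Per2 (756) and Nefh (588) and high for Tex11 (239). Replicate 3 was high for Dgat2 (262), Tef (6088) and Lcn2 (1186, others 273 to 384). Replicate 1 was low for Ttr (3724) and Cox7a2 (10350.3), and replicate 2 was high for Pfkfb3 (2617).

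The difference between 1 week and the mean of the other contralateral times passed in limma for 16 of the named probe sets. On the log2 scale it was -1.05 and -0.89 for the 2 probe sets of Slc39a14, -1.16 and -1.13 for those of Tnfrsf12a, -1.27 for Ilkap, -0.89 for Hbegf, -0.79 for Glipr2, -0.71 for Cda and -0.63 for Rasa2. It was 1.43 for Rasd2, 0.78 for Pcsk4, 0.69 for Smpdl3b, 0.59 for Per3, 0.57 for Dbp, 0.51 for Sphk2 and 0.36 for Tef. The adjusted p of Dbp, at 0.049, was the highest of these.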

How the results depend on the processing

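With only the 10 arrays of both groups, 0 probe sets were called, 1 passed at any fold and 1 clock gene passed, beside 21, 102 and 8. The count at any fold was also 176 without a filter and 172 with array weights, and 65 without the array of each group richest in photoreceptor transcripts, an alternative chosen after seeing the data. Leaving out each array in turn gave 14 to 37 called, 53 to 410 at any fold, 7 to 9 clock genes, 3 to 16 against the other contralateral times at 2-fold (6 with all arrays) and 2 to 7 by the criteria of the study. The test against the other contralateral times at any fold gave 44 with all arrays and 41 with only the 20 contralateral arrays in the model. It gave 86 with array weights and 16 to 528 without single arrays. With the methods' t-test adjusted, 0 probe sets met the criteria. The replicate numbers name different mice in the naïve and contralateral groups and do not pair the samples (correlations of deviations -0.57, -0.01, 0.06, -0.39 and 0.56). With the replicate block the counts were 22, 82, 7 and, against the other contralateral times, 5. Of 46 named values past the adjusted p, 26 kept their call without each array in turn and 20 did not, and 1 (Tef) kept it under all 23 alternatives. Other probe sets reversed Sphk2 (-0.52) and Pfkfb3 (0.12). The alternatives for the count of clock genes were also added after seeing the data. The causes were not tested. Differences at intensities near 50 or below are limited by the signal over background.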

Other observations

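Genes outside the naming rule also passed at an adjusted p under 0.05 and less than 2-fold, and those given here were chosen after their values were seen. Txnrd1, the cytosolic thioredoxin reductase, was lower by 0.76 ± 0.12 and 0.65 ± 0.13 on its 2 probe sets (adjusted p = 0.00237 and 0.0178). Gadd45a, a stress gene, was lower by 0.60 ± 0.13 (adjusted p = 0.0285), the pseudokinase gene Trib1 by 0.63 ± 0.12 (adjusted p = 0.0133), the ephrin receptor Epha2 by 0.72 ± 0.16 (adjusted p = 0.0343), dystroglycan (Dag1) by 0.59 ± 0.11 (adjusted p = 0.00912) and annexin A3 (Anxa3) by 0.40 ± 0.08 (adjusted p = 0.0201). The transcription factor Klf6 was lower by 0.71 ± 0.13 on one probe set (adjusted p = 0.0115), while another gave -0.19 ± 0.07 (adjusted p = 0.217). The tetraspanin Tspan4 was higher by 0.69 ± 0.10 (adjusted p = 0.00101), the adhesion molecule Cadm4 by 0.54 ± 0.11 (adjusted p = 0.0201), Bdh1, an enzyme of ketone body metabolism, by 0.51 ± 0.10 (adjusted p = 0.0201) and the metal-responsive factor Mtf1 by 0.56 ± 0.12 (adjusted p = 0.0289). Of the genes with 2 probe sets that passed, 10 in all, the 2 had the same direction in each.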
